A study of Bos taurus with 9 samples.

Results

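The comparison described here set 3 libraries of the Nanuq group against 3 libraries of the control group (CTR), 6 of the 9 libraries of the series, and covered every gene in the count table. Both groups were bovine blastocysts that had hatched. RNA was sequenced from pools of 5 to 10 embryos taken from those that hatched within 24 h. For embryos that had been cooled, the 24 h ran from thawing. Nanuq is the treatment label of a cooled group. Beside the control, the design has a standard and an ultrafast mode of cooling, and the labels do not tie Nanuq to either. CTR is the control as labelled, and the labels do not state whether its embryos had been cooled. The 3 Cryotop libraries were left out of the gene filter, the scaling and the estimate of spread. The labels give no breed, embryo sex or production batch, and do not say if a group's pools stem from separate productions, so the p-values rest on a spread between pools that may be technical in part.

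A blastocyst holds an outer epithelium, the trophectoderm, which forms the fetal part of the placenta, and an inner cell mass, from which the fetus and the hypoblast arise. Hatching is its escape from the zona pellucida, the glycoprotein shell around the egg and early embryo. Vitrification turns the water of an embryo into a glass by fast cooling with cryoprotectants, so that ice crystals do not form, and fast warming is needed to keep ice from forming on the way back. Because hatched embryos were collected, the libraries describe those that had lived through warming and gone on developing, or, for any control embryos that had not been cooled, those that hatched in culture. In pooled embryos, fewer cells of a type and less RNA per cell cannot be told apart.

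Genes carry Ensembl bovine identifiers, and 0 of the 27607 were paired with a symbol by the tables used here. Markers of trophectoderm, inner cell mass, hypoblast and cumulus cells were therefore not examined, the labelled tissue was not checked against them, and no function is given for the genes below. Total counts were 19490838 to 25745731 in CTR and 17591464 to 22529555 in Nanuq. The 13524 genes abundant enough to test held 99.9% of all counts.

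CTR replicate 2 stood apart from the other 5 libraries. Genes with at least 1 count, expected in a random draw of 17591464 counts, numbered 13853, 16208 and 14068 in CTR and 14140, 14883 and 14508 in Nanuq, in order of replicate. The 3 Nanuq values lay between the CTR values. The means were 14710 ± 1302 in CTR and 14510 ± 372 in Nanuq (SD, n = 3 each). An exact two-sided permutation test gave p = 1, where 0.1 is the smallest possible with 3 pools a side. Without CTR replicate 2 the direction turned, and Nanuq was higher by 550 genes, with an exact permutation p of 0.2. At full depth, CTR replicate 2 held 976 genes with a count in no other of the 6 libraries, against 190 to 377 in each of the others. These numbers were not matched for depth, and CTR replicate 2 had the largest total, 25745731 counts. Those 976 genes had a median count of 5 and made up 0.0230% of its counts.

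**Figure D1:**
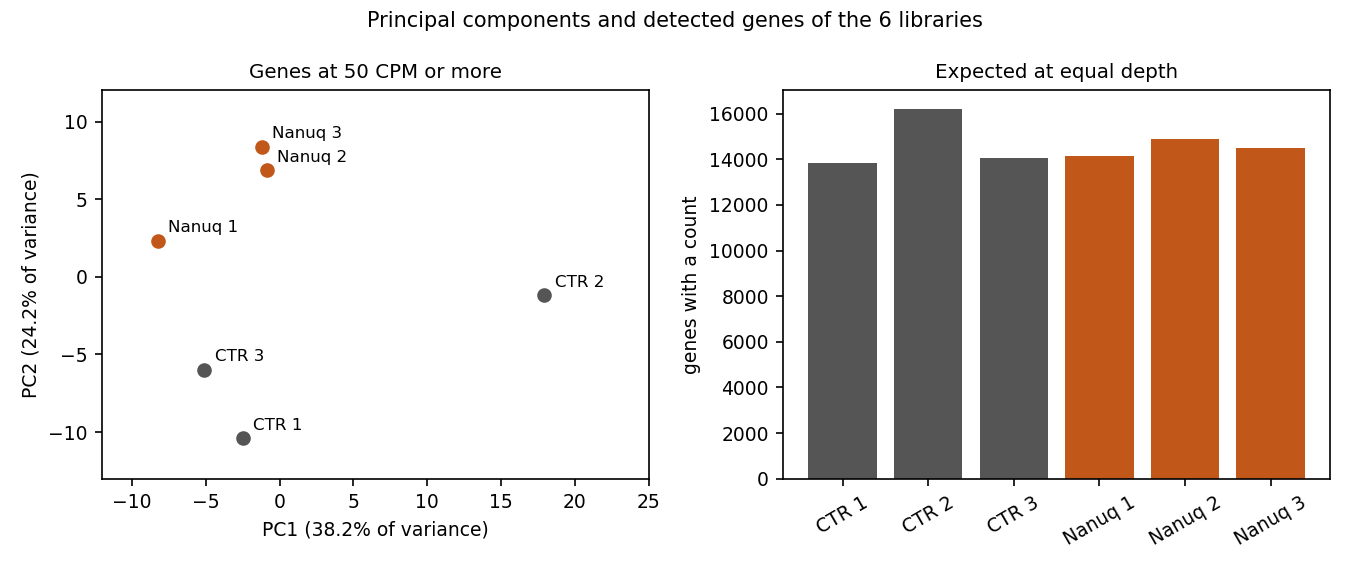
Left, principal components of log2 CPM over the 4015 genes averaging 50 CPM or more, one point per library. Right, genes with at least 1 count expected at 17591464 counts, one bar per library. CTR replicate 2 lies apart on the first component (17.9, against -8.26 to -0.86 for the other 5) and has the tallest bar.

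Distances between libraries of the 2 groups overlapped those within CTR with all 6 libraries. Levels are in CPM, a gene's count relative to a common library total, scaled between libraries by trimmed means (TMM). Over the 4015 genes with a mean of at least 50 CPM in these 6 libraries, which held 86.3% of counts, the median absolute difference between libraries in log2 CPM was 0.18 to 0.26 for the 9 pairs of CTR with Nanuq. It was 0.17 to 0.26 for the 3 CTR pairs and 0.14 to 0.18 for the 3 Nanuq pairs. The means were 0.21 between groups, 0.22 within CTR and 0.16 within Nanuq. Without CTR replicate 2, the 6 pairs between groups lay at 0.18 to 0.21 and the 4 pairs within a group at 0.14 to 0.18, and 5 of the 6 exceeded every pair within a group. CTR replicate 2 was in the widest CTR pairs, and no other library was set aside for this measure. Pairs also share libraries, so this is a description and no evidence that the groups separate. In the pair of Nanuq replicates 2 and 3, 0.0996% of these genes differed by 2-fold or more. That share was 3.56% between CTR replicate 2 and Nanuq replicate 1, the most distant pair by this measure. CTR replicate 2 lay apart on the first principal component, which held 38.2% of the variance. On the second, with 24.2%, the 3 Nanuq libraries lay at 2.33 to 8.38 and the 3 CTR libraries at -10.4 to -1.17. The groups thus did not overlap on the second component, which is a description of 6 points and was given no test.

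**Figure D2:**
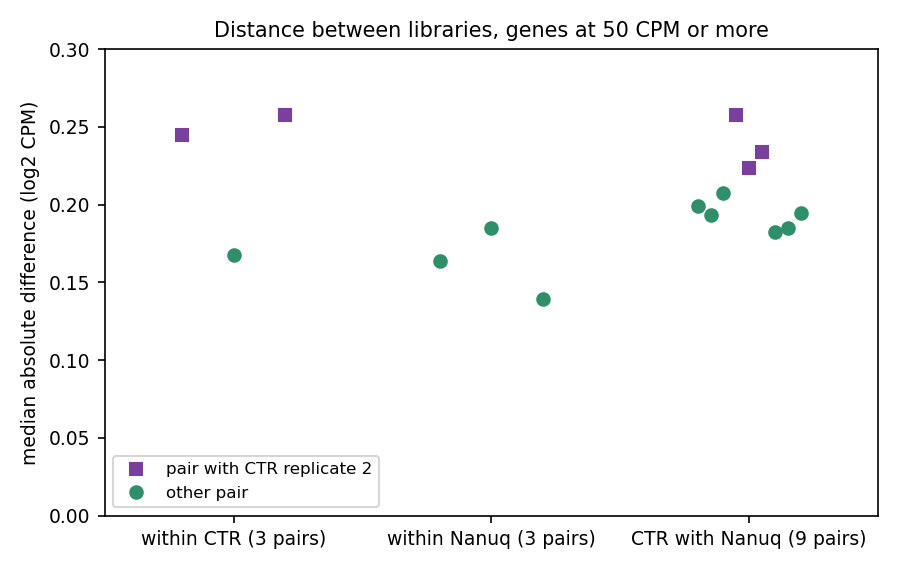
Median absolute difference in log2 CPM between 2 libraries over genes averaging 50 CPM or more, one point per pair. Squares are pairs that include CTR replicate 2, which lie at 0.22 to 0.26, and circles are the other pairs, which lie at 0.14 to 0.21.

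The spread between pools was smaller in Nanuq with all 6 libraries, and that order did not hold without CTR replicate 2. Among genes at 50 CPM or more, the median SD of log2 CPM over the 3 pools was 0.193 in CTR and 0.143 in Nanuq. The ratio of the Nanuq to the CTR median was 0.744, and 65.2% of these genes had the larger SD in CTR. Without CTR replicate 2 the ratio was 1.21, but it then set 3 Nanuq pools against 2 CTR pools. A median SD over 2 pools tends to be lower than one over 3, so 1.21 does not show a larger spread in Nanuq. By pairs, CTR replicates 1 and 3 lay 0.17 apart, within the 0.14 to 0.18 of the Nanuq pairs. At 5 to 50 CPM the medians were 0.310 and 0.281, and under 5 CPM 0.949 and 0.877. Genes share their libraries, so these ratios are descriptions with no test.

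The main test called no gene between Nanuq and CTR, and other tools called few. In edgeR's quasi-likelihood fit of these 6 libraries, with p-values adjusted by Benjamini-Hochberg, 0 of 13524 genes (0%) passed an adjusted p of 0.05, and the smallest adjusted p was 0.252. Without adjustment, 907 genes (6.71%) had a p under 0.05, of which 385 (2.85% of those tested) were higher in Nanuq and 522 (3.86%) lower. A flat distribution of p-values would put 676 there. DESeq2 called 26 of the 7567 genes it gave an adjusted p (0.344%), 15 higher and 11 lower. limma voom called 1 gene (0.00739%), which was lower in Nanuq. With 3 pools a side, a gene called alone in the edgeR test would need a p of 3.70e-06, and the smallest seen was 1.86e-05.

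Small p-values were more frequent among genes at 5 CPM or more than among scarcer ones. At 50 CPM or more, 428 genes (10.7%) lay under an unadjusted 0.05, 218 of them higher in Nanuq and 210 lower. At 5 to 50 CPM there were 409 of 5829 (7.02%), 150 higher and 259 lower, and under 5 CPM 70 of 3680 (1.90%), 17 higher and 53 lower. The fitted changes of the 428 abundant genes were modest, with a median absolute log2 fold change of 0.42, against 0.13 for all genes at 50 CPM or more. Genes picked by a small p have larger changes in the same fit, so this contrast follows from the choice. The balance of directions and the number of small p-values moved with single pools. Without CTR replicate 2, 559 genes at 50 CPM or more lay under 0.05, 383 higher and 176 lower, and over all genes the 907 became 1152, 683 higher and 469 lower. The share higher thus went from 42.5% to 59.3%. Without Nanuq replicate 2 the counts moved the other way: 244 genes (6.08%) at 50 CPM or more, 96 higher and 148 lower, and 666 over all genes, 211 higher and 455 lower, or 31.7% higher. The 666, from 14110 genes tested in that fit, lay below the 676 that a flat distribution would give even for 13524 genes. The fit without CTR replicate 2 tested 14130. The share higher was 35.4% without CTR replicate 1 and 36.6% without Nanuq replicate 3.

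The groups did not overlap for 1712 genes (12.7%), with every Nanuq pool above every CTR pool for 855 (6.32%) and below for 857 (6.34%). Among genes at 50 CPM or more the number was 627 (15.6%), 393 above and 234 below. At 5 to 50 CPM it was 705 (12.1%), and under 5 CPM 380 (10.3%). The share was thus highest in the most abundant class, where separated genes were more often higher in Nanuq. These shares were not tested against each other.

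**Figure D3:**
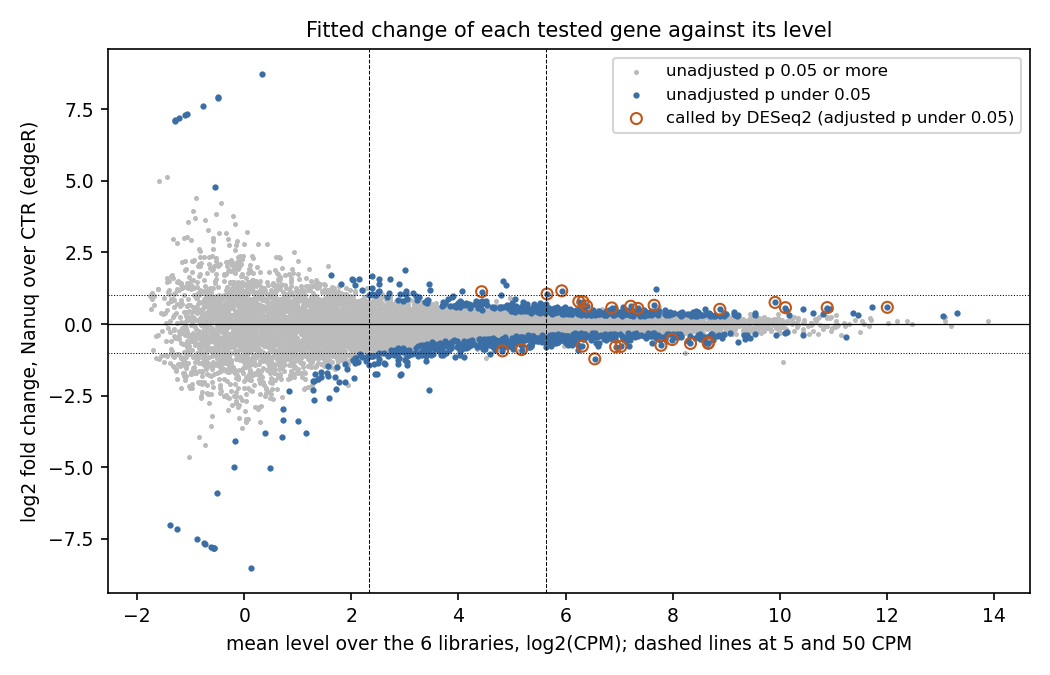
Log2 fold change of Nanuq over CTR from edgeR (y axis) against the mean level over the 6 libraries (x axis, log2 CPM), one point per tested gene. Dotted lines mark 2-fold changes, and points beyond 7 in either direction are scarce genes whose fitted value is no measure of the fold. Of the 4015 genes right of the 50 CPM line, 6 lie at or beyond 2-fold. Circles mark the DESeq2 calls, placed at their edgeR values. By DESeq2's own fit the size of their changes was 0.52 to 1.21 on the log2 scale.

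Large changes among abundant genes were few, and the design bounded most of them. At 50 CPM or more, 6 genes had a fitted change of 2-fold or more, 3 in each direction. Over all tested genes that number was 1058 (7.82%), and 968 of them averaged under 5 CPM. The whole 95% interval of the change lay within 2-fold in either direction in 98.1% of genes in the 50 CPM class, in 67.3% at 5 to 50 CPM and in 0 under 5 CPM. Within 1.5-fold the shares were 72.7% and 15.0% for the upper classes. At the median standard error of the 50 CPM class, a gene called alone would need a change of 2.22-fold. Smaller changes in single genes were not detectable by this test unless many genes changed or the gene's own error was below the median.

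The 2 higher and 2 lower genes with the smallest p-values are described in full. They were picked from 13524 tested genes by p, so gaps between groups and large fold changes follow in part from the choice. Their 95% intervals are not adjusted for it. ENSBTAG00000039719 had the smallest p of all. Its level was 142, 145 and 105 CPM in CTR and 68.9, 58.2 and 41.5 CPM in Nanuq, in order of replicate. Every Nanuq pool lay below every CTR pool, and the lowest CTR value was the one nearest to Nanuq. Means were 131 ± 22.2 and 56.2 ± 13.8 CPM (SD, n = 3 each), a log2 fold change of -1.22 ± 0.194 (SE), or 2.32-fold more in CTR (95% interval 1.74 to 3.10). The adjusted p was 0.252 by edgeR, 5.52e-05 by DESeq2 and 0.0419 by limma voom. It was the gene limma voom called. In the 3 Cryotop pools, scaled with all 9 libraries, it measured 106, 114 and 32.9 CPM, a range that took in values on both sides. With those libraries in the estimate of spread its unadjusted p went from 1.86e-05 to 0.00457 and its adjusted p to 0.999 by edgeR.

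ENSBTAG00000003222 was the second gene lower in Nanuq. It measured 158, 152 and 156 CPM in CTR and 105, 77.5 and 86.5 CPM in Nanuq, in order of replicate. The CTR pools were close together, and the Nanuq pools lay below them with a wider spread. Means were 155 ± 2.68 and 89.7 ± 14.1 CPM (SD, n = 3 each), a log2 fold change of -0.79 ± 0.147 (SE). The adjusted p was 0.438 by edgeR, 0.00275 by DESeq2 and 0.155 by limma voom. The Cryotop pools measured 185, 142 and 110 CPM, scaled with all 9 libraries.

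Among genes higher in Nanuq, ENSBTAG00000014529 measured 59.7, 51.3 and 56.5 CPM in CTR and 97.2, 99.4 and 92.1 CPM in Nanuq, in order of replicate. Both groups were tight, and a wide gap lay between them. The log2 fold change was 0.79 ± 0.147 (SE), or 1.72-fold (95% interval 1.39 to 2.14). The adjusted p was 0.438 by edgeR, 0.00349 by DESeq2 and 0.209 by limma voom. In the Cryotop pools it measured 75.7, 95.2 and 89.8 CPM on the scale of all 9 libraries, above the CTR levels as in Nanuq.

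ENSBTAG00000043571 was the most abundant of these genes, ranked 107 among the 13524 by mean level. It measured 555, 766 and 834 CPM in CTR and 1095, 1337 and 1202 CPM in Nanuq, in order of replicate. CTR replicate 1 was the lowest pool, and the groups did not overlap. The log2 fold change was 0.75 ± 0.156 (SE) with all pools, and 0.60 without CTR replicate 1. The adjusted p was 0.597 by edgeR, 0.00200 by DESeq2 and 0.155 by limma voom. The Cryotop pools, at 1124, 990 and 1226 CPM on the scale of all 9 libraries, were also above the CTR levels. Both device groups are set against the same CTR pools here, so their sides of CTR are not independent. Levels of different genes are not compared per length here, since no gene lengths were paired with the identifiers, and rank is by CPM alone.

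**Figure D4:**
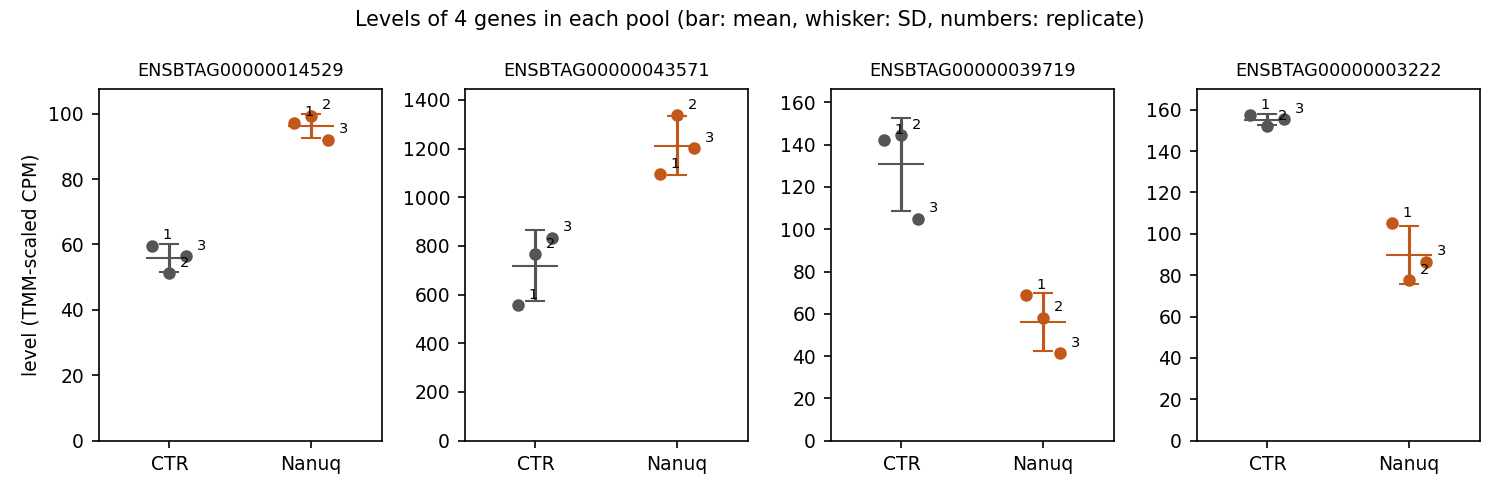
Level in TMM-scaled CPM (y axis, from 0) of 4 genes in each CTR and Nanuq pool. Points are pools with their replicate number, horizontal bars are group means and whiskers are SD (n = 3). In each panel all Nanuq points lie on one side of all CTR points, for genes that were picked by their small p-values.

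The 26 DESeq2 calls were mostly abundant genes with changes under 2-fold. Of the 26, 23 averaged 50 CPM or more and 3 averaged 5 to 50 CPM. These classes held 4015 and 5829 of the 13524 genes tested by edgeR. DESeq2 could call only the 7567 genes to which it gave an adjusted p, and these were not counted by class. DESeq2 filters by mean count and gave no adjusted p to 10645 of the 18212 genes with a p. Genes under its limit thus could not be called, and they included part of the class of 5 to 50 CPM. ENSBTAG00000000569, with a mean of 15.2 CPM, had no adjusted p. The split of the calls by class therefore depends in part on this filter. Among the 26 the size of the change by DESeq2 was 0.52 to 1.21 on the log2 scale, with a median of 0.70. For all 26 the groups did not overlap, beside 12.7% of all tested genes and 15.6% in the 50 CPM class. Their unadjusted p by edgeR ran from 1.86e-05 to 0.00181. Both come from the counts on which DESeq2 picked these genes, so they are no separate support for the calls. With each library left out in turn, 0 stayed called in all 6 DESeq2 fits and 3 stayed called in at least 5. The number called moved from 4 (1 higher, 3 lower) without Nanuq replicate 2 to 124 (101 higher, 23 lower) without CTR replicate 2. Between these lay 10 without Nanuq replicate 3, 16 without CTR replicate 1, 40 without CTR replicate 3 and 46 without Nanuq replicate 1. Of the 124, 16 were among the 26.

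**Figure D5:**
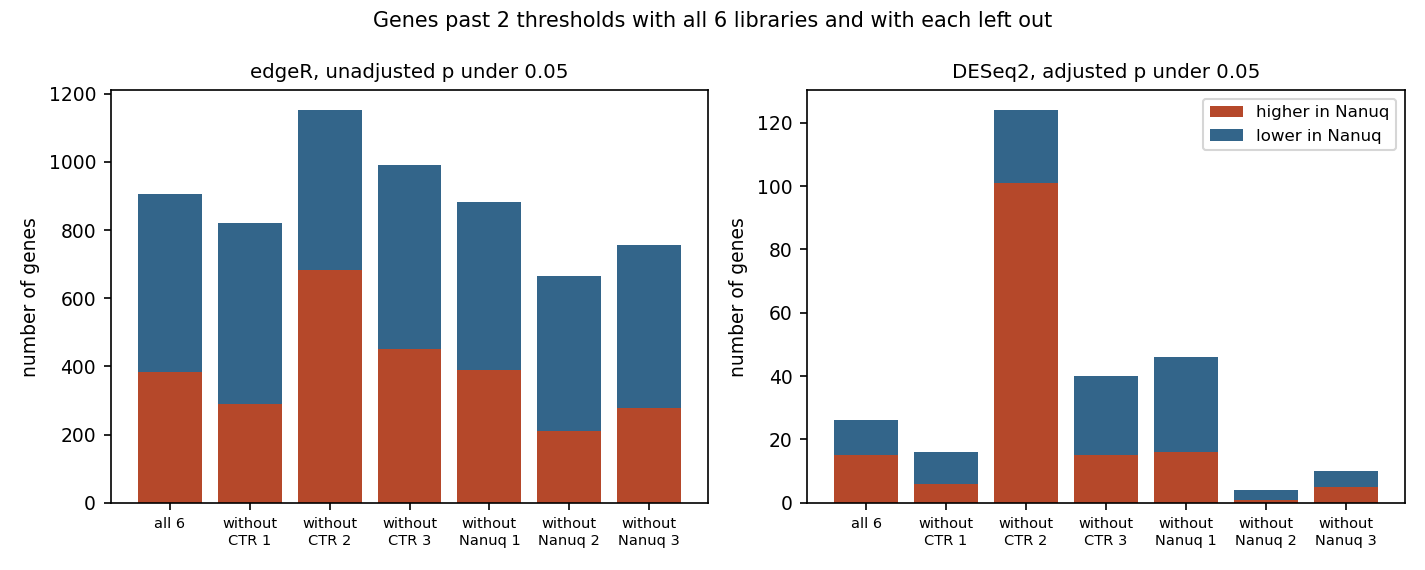
Number of genes at an unadjusted p under 0.05 by edgeR (left) and at an adjusted p under 0.05 by DESeq2 (right), with all 6 libraries and with each left out, split by direction. Without CTR replicate 2 both bars are at their tallest, 1152 and 124, and genes higher in Nanuq make up most of them.

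The 10 most abundant genes held slightly more of the counts in each Nanuq pool than in each CTR pool, and wider or narrower sets overlapped. The 10 genes with the highest mean level over the 6 libraries held 7.50%, 8.09% and 7.51% of counts in CTR and 8.31%, 8.28% and 8.56% in Nanuq, in order of replicate. The groups did not overlap, and the means of 7.70% ± 0.336 and 8.38% ± 0.155 (SD, n = 3 each) gave an exact two-sided permutation p of 0.1, the smallest 3 pools a side can give. Of these 10 genes 9 had a higher fitted level in Nanuq, with log2 fold changes from -0.07 to 0.37 over the 10. For 2 of them the groups did not overlap, and both were higher in Nanuq. The top gene of each library held 1.47% ± 0.108 in CTR and 1.55% ± 0.0544 in Nanuq, with an exact permutation p of 0.4. The 1000 most abundant genes held 56.8% ± 1.17 and 57.7% ± 0.659, also with an exact permutation p of 0.4. The 100 most abundant genes held 23.2% ± 0.812 of counts in CTR and 24.3% ± 0.476 in Nanuq, with overlapping groups and an exact permutation p of 0.2. Of those 100, 58 were higher and 42 lower, where 47.5% of all tested genes were higher and 52.95% in the 50 CPM class. The groups did not overlap for 22 of the 100, 19 above CTR and 3 below. Over all tested genes that share was 12.7% (6.32% above). In the 50 CPM class it was 15.6%, with 393 of 4015 genes above and 234 below. Among the 1000 most abundant genes there were 173, with 119 above and 54 below. The median log2 fold change of the 100 was 0.03, against -0.02 over all tested genes.

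Presence in one group alone was confined to scarce transcripts in these 6 libraries. In the whole table, 27 genes had counts in all 3 Nanuq libraries and 0 in all 3 CTR libraries, and 56 had the reverse pattern. The largest mean count among the 27 was 52.3 (2.52 CPM without TMM scaling), and among the 56 it was 46.0 (2.23 CPM). A count of 0 allows up to 0.117 to 0.154 CPM in the CTR libraries and 0.133 to 0.171 CPM in the Nanuq libraries, taking 3 counts as the limit, for counting error alone. Of these genes 9 and 10 were abundant enough to test, and their smallest adjusted p by edgeR was 0.597 and 0.634.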

How the data were processed

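The authors deposited raw counts per gene, not normalized. Per the submitters' processing notes, the build was ARS-UCD1.2, and the tools named were STAR 2.7.0e, Trim Galore 0.6.0, DESeq2 1.26.0 and FastQC. How reads were counted, and with which annotation and strand setting, is information not given in the sources used here. Reads of overlapping, antisense or near-identical genes may therefore be mixed. Per the labels' protocols, polyadenylated RNA was isolated on columns for very small samples.

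Columns were matched to samples by title, and 0 were unused. edgeR 4.0.16 (R 4.3.3) was run on the 6 libraries: filterByExpr, TMM, the robust quasi-likelihood F test, Benjamini-Hochberg over all tested genes. The common dispersion was 0.162 (biological coefficient of variation 40.3%). Log2 CPM used a prior count of 2. DESeq2 1.42.0 and limma 3.58.1 were alternatives. Genes named were the 2 higher and 2 lower with the smallest p-values, since the rule and gene lists based on symbols could not be applied. Classes were split at 5 and 50 CPM. Groups, lists and tests were chosen with earlier results of these data known. The scripts were tested on simulated data. Pools of a group differed beyond sampling noise (chi-square per degree of freedom at least 21.0).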

Additional observations from a re-analysis of the deposited data

How the results depend on the processing

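The count of 0 genes called by edgeR remained 0 under other scalings, higher count minimums, no robust estimation, a fold minimum, a threshold of 0.1, thinned counts and all 9 libraries. It became 58 with no filter (21 higher and 37 lower, with the prior degrees of freedom infinite, so that no gene's own spread counted), 26 with DESeq2, 1 with limma voom and 3 with library quality weights. Leaving out 1 library gave 0 to 1, and the call came without CTR replicate 3. That gene, ENSBTAG00000054661, is named after its values were seen: it measured 23.4, 29.2 and 2.06 CPM in CTR and 2.84, 4.88 and 3.43 CPM in Nanuq. The 907 genes at an unadjusted p under 0.05 became 449 with a fold minimum of 1.2, 598 with all 9 libraries and 420 with a mean of at least 50 CPM, the last added after seeing the data and testing fewer genes. Leaving out 1 library gave 666 (without Nanuq replicate 2) to 1152 (without CTR replicate 2). DESeq2 with 1 library left out, also added later, gave 4 to 124. The difference in genes detected at equal depth ran from -628 to 550, reversed without CTR replicate 2. The difference in the share of the 100 most abundant genes of each library (1.09 percentage points) ran from 0.808 to 1.61. The ratio of spreads ran from 0.521 to 1.21, with the Nanuq median the larger only without CTR replicate 2. With 1 library left out, the SD of its group came from fewer pools, which tends to lower it. Causes of these shifts were not tested.

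A fit with a replicate block gave 2 edgeR calls, ENSBTAG00000039719 (adjusted p = 0.00458) and ENSBTAG00000003920 (adjusted p = 0.00458), the second named after its values were seen. The numbers carry no stated pairing. Deviations of same-numbered pools correlated at 0.190, 0.223 and -0.0202. CTR replicates 1 and 2 each correlated best with the Nanuq pool of the same number, and CTR replicate 3 with Nanuq replicate 1 (0.140). Whether pools of the same number belong together was not tested.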

Other observations

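Among the 6 genes at 50 CPM or more with a fitted change of 2-fold or more, 2 had 1 control pool far from the rest. Both are named after their values were seen. ENSBTAG00000052217 measured 546, 408 and 3655 CPM in CTR replicates 1, 2 and 3 and 728, 878 and 237 CPM in Nanuq replicates 1, 2 and 3. CTR replicate 3 was far above the other 5 pools, which overlapped. ENSBTAG00000051364 measured 230, 852 and 123 CPM in CTR and 222, 142 and 236 CPM in Nanuq. There CTR replicate 2 was the high pool. Their unadjusted p by edgeR was 0.304 and 0.273. Fitted log2 fold changes were -1.32 and -1.01. Without CTR replicate 3 the first turned to 0.39, and without CTR replicate 2 the second turned to 0.18.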
